A study of Mus musculus with 20 samples.

Results

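A set of 9 genes of the histone methylation and chromatin remodeling machinery were followed in the left ventricle of aging mice on 4 diets: *Kmt2a*, *Kmt2b*, *Kmt2c*, *Kmt2d*, *Kmt2e*, *Setd1a*, *Ep400*, *Crebbp*, and *Arid1a*. They are 9 of the 15956 genes in the deposited count table, picked by symbol, and all 9 were among the 13991 genes that passed the filter on low counts. *Kmt2d* was selected on its lower counts in HF hearts than in NP hearts, and the other 8 genes were added as related regulators with earlier results of these data known. The difference of the 9 genes between HF and NP mice is therefore given as a description with no p, and the tests are given for HF+LP compared with LP mice, which share no animal with it. Since the other 8 genes were added with results known, the pattern over the 9 is a description there too, and the spread in the test was estimated from all 4 diets. The comparisons of HF+LP with HF and of LP with NP each use a group from which *Kmt2d* was picked, so their tests are not independent of that choice. Correlations within diets were computed after group means were subtracted.

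The RNA came from 20 male mice, 5 per diet. NP mice ate a normal protein diet with 20% casein, LP mice a low protein diet with 5% casein, HF mice a high-fat diet with 20% casein, and HF+LP mice a high-fat diet with 5% casein. The methods place the start of the diets at 12 months of age and tissue collection at 16 months, after 4 months of diet, whereas the labels give 18 months for every mouse, and the sources used here do not name a strain. The ventricle was sequenced as whole tissue, so fewer cells of a type and less RNA per cell cannot be told apart. Same-numbered mice of different diets are different animals. The label of LP mouse 5 calls its library sample 2 of that animal, and it was counted as 1 mouse.

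KMT2A to KMT2D and SETD1A are catalytic subunits of COMPASS-type complexes, which place methyl groups on lysine 4 of histone H3. KMT2C and KMT2D act mainly at enhancers together with the demethylase KDM6A, KMT2A and KMT2B act at selected promoters and enhancers with menin, and SETD1A and SETD1B account for much of the trimethylation at active promoters. KMT2E carries a SET domain but is not known for methyltransferase activity. CREBBP acetylates histones at enhancers and promoters, EP400 is an ATPase of the TIP60 complex that exchanges histone variants, and ARID1A is the DNA-binding subunit of the BAF remodeling complex. Loss of KMT2D in mice is known to disturb heart development and cardiac gene expression.

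All 9 are large genes. *Kmt2d* (ENSMUSG00000048154) spans chr15:98831669-98871204 on the minus strand of GRCm38, and its transcript with the longest coding sequence in GENCODE M21 has 19823 nucleotides, of which 16764 code for protein, with a G+C content of 58.4%. It is longer than 99.9% of the 9787 protein-coding genes with a mean normalized count over 50, and its G+C content is above that of 90.7% of them. No other annotated gene overlaps it. The transcripts of the other 8 genes range from 6487 nucleotides in *Setd1a* to 16470 in *Kmt2a*, and their G+C content from 45.9% in *Kmt2e* to 59.1% in *Kmt2b*. *Kmt2e* overlaps the protein-coding gene *Srpk2* on the opposite strand, and *Ep400* holds the small nuclear RNA gene Gm22716 on its own strand. The counts of both neighbors are listed separately, and whether the counting used strand is not given in the sources used here.

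The promoter of *Kmt2d* is rich in CG dinucleotides. Upstream windows of 3 genes are shown because they set *Kmt2d* beside its closest paralog and a remodeling subunit; each is the 250 bases before the start site in the RefSeq table (GRCm38.p6, minus strand, written 5′ to 3′), with CG dinucleotides in capitals. The *Kmt2d* window lies at chr15:98871206-98871455, the *Kmt2c* window at chr5:25498784-25499033, and the *Arid1a* window at chr4:133756770-133757019.
Kmt2d: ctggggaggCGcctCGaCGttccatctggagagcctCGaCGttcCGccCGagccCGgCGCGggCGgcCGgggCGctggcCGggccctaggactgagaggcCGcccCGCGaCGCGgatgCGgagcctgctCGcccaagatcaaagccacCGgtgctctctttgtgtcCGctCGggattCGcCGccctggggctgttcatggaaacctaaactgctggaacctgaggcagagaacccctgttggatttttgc
Kmt2c: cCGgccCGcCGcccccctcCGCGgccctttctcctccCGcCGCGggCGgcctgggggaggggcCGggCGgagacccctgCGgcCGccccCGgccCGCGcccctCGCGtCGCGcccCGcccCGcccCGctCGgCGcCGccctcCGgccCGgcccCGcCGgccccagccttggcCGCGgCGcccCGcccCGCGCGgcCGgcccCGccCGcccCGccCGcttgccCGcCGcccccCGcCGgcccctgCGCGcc
Arid1a: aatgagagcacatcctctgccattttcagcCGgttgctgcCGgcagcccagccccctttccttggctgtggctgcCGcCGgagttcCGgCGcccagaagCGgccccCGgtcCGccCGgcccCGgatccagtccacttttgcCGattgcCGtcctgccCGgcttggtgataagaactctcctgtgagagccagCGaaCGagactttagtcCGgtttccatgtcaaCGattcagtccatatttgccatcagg
The *Kmt2d* window holds 26 CG dinucleotides, more than 90.4% of the 32851 mouse windows of the same length, whose median is 6. The *Kmt2c* window holds 48 and the *Arid1a* window shown 18. The table lists 2 start sites for *Arid1a*, and the window before the other, at chr4:133753986-133754235, holds 33. The letters of an SP/KLF box, GGGCGG, read on both strands, occur 4 times in the *Kmt2d* window, 12 times in that of *Kmt2c*, and 1 time in that of *Arid1a* shown (7 times before its other start), and 32.7% of all windows hold at least 1. An entry was found for 7 of the 9 genes, and *Kmt2b* and *Kmt2e* had none. These letters are a description of the windows and not binding sites.

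The libraries held 12559607 to 23331907 counts, and mitochondrially encoded genes took 35.4% to 47.2% of them. *Kmt2d* had between 169 and 848 raw counts per library, and the smallest raw count of any of the 9 genes was 69. Summed markers of ventricular cardiomyocytes lay between 35110 and 56417 CPM (counts scaled to library size) and those of lymphocytes between 0.703 and 6.22, while atrial markers ranged from 60.2 to 14814. LP mouse 13 stood apart, with a median correlation of 0.907 with the other LP libraries, against 0.942 or more for every other library with its group, and with the highest summed atrial and adipocyte markers (14814 and 290 CPM). The 9 genes in HF+LP compared with LP are therefore also given without it. Libraries were named with a number from 1 to 3 whose meaning the labels do not give, and a running index that follows the diets, so the index and the diet cannot be told apart.

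The counts come from 3′ tags, which do not grow with transcript length, and levels between genes are compared on that tag scale. In NP hearts, *Kmt2e* had the highest mean level (156 CPM), followed by *Kmt2c* (77.3 CPM), *Crebbp* (74.8 CPM), and *Kmt2a* (67.4 CPM). *Arid1a*, *Ep400*, and *Kmt2d* formed a middle range of 36.5, 28.5, and 28.2 CPM. *Setd1a* (14.6 CPM) and *Kmt2b* (9.04 CPM) were lowest.

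*Kmt2d* transcripts were scarcer in both groups of mice fed high fat, at either protein level. Normalized counts of *Kmt2d* were 420, 543, 483, 433, and 516 in NP mice 3, 4, 5, 6, and 8. In LP mice 2, 5, 13, 15, and 20 they were 490, 441, 533, 469, and 530. HF mice 1 to 5 had 224, 223, 302, 249, and 289. HF+LP mice 1 to 5 had 271, 277, 318, 290, and 276. Every mouse on a high-fat diet lay below every mouse on a diet without high fat, since the highest high-fat value was 318 and the lowest of the others 420. By mean, the order was LP (492 ± 39.5, SD, n = 5), NP (479 ± 52.5), HF+LP (286 ± 18.9), and HF (257 ± 36.8). LP and NP overlapped in range, as did HF+LP and HF.

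**Figure D1:**
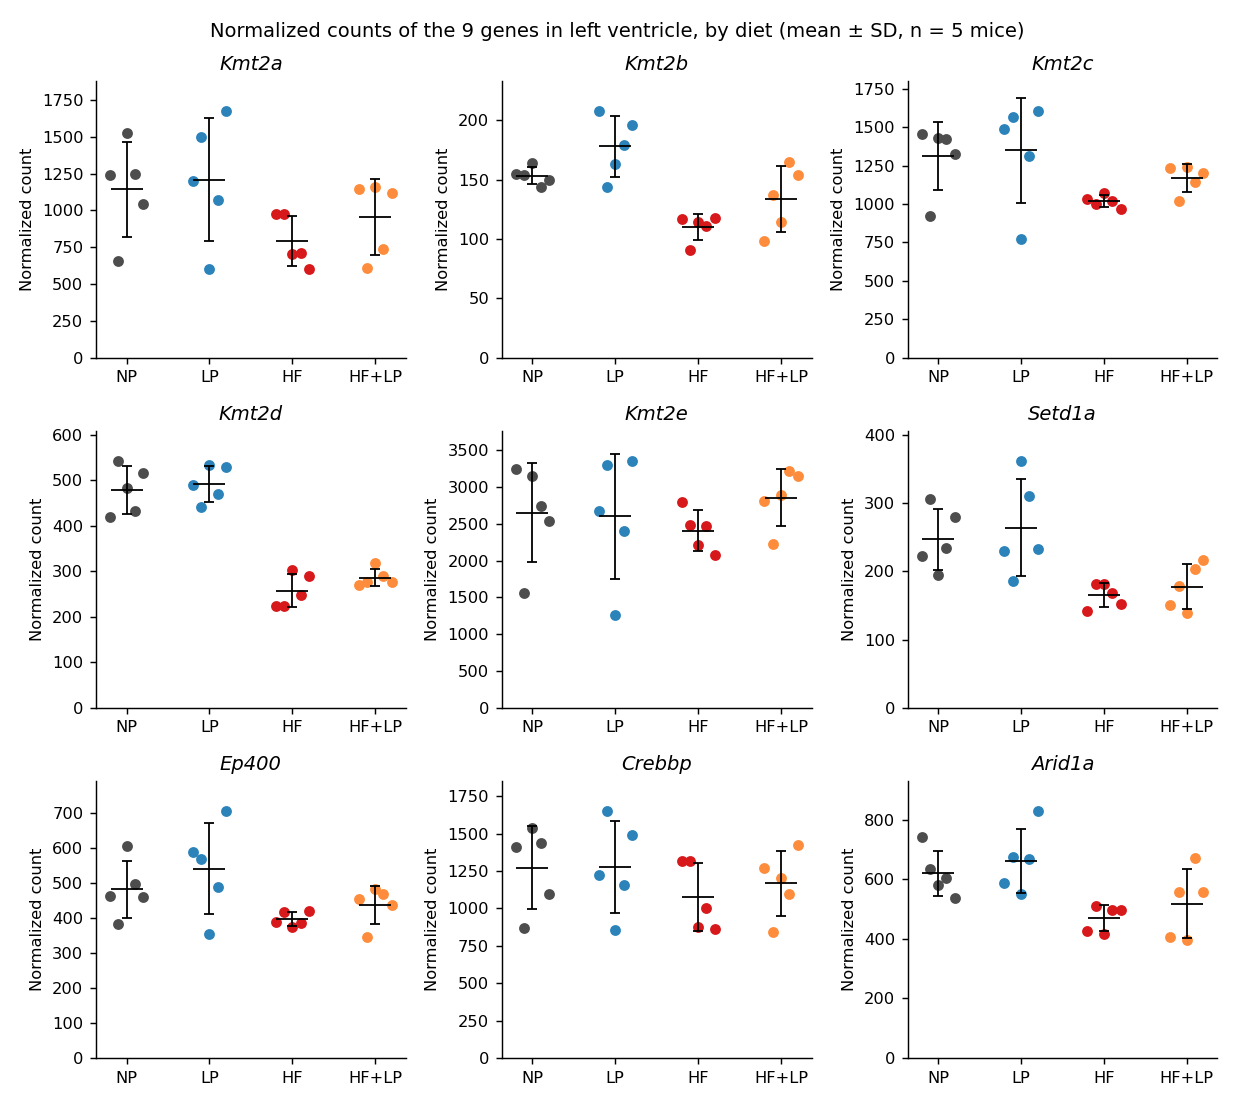
Normalized counts (vertical axis, from 0) of each of the 9 genes in every mouse, by diet; points are mice, bars the mean ± SD of 5 mice. *Kmt2d* shows the clearest split, with all high-fat mice at 318 or below and all others at 420 or above.

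In HF+LP compared with LP hearts, *Kmt2d* fell by 41.9% (log2 fold change −0.78, SE 0.11), with an adjusted p of 0.00246 in edgeR's quasi-likelihood test and with 5 of 5 HF+LP mice below every LP mouse. It ranked 2 of 13991 genes by p. Genes that passed the threshold (adjusted p under 0.01 and mean normalized count over 50) in the lower direction made up 0.05% of all genes tested, and genes whose HF+LP range lay wholly below the LP range made up 0.951%. A two-sided exact permutation test of log2 CPM in the same 10 mice gave p = 0.00794, the smallest that 5 mice against 5 allow. Without LP mouse 13 the log2 fold change was −0.76 (edgeR adjusted p = 0.00495). P-values measure the spread between the mice sequenced.

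Within each of the numbers in the library names the direction of the *Kmt2d* difference was the same. Among libraries numbered 1, *Kmt2d* was 271 in the HF+LP mouse and 490 to 533 in the LP mice. Among those numbered 2, the values were 277 and 530, with 1 mouse each. Those numbered 3 had 276 to 318 in HF+LP and 441 to 469 in LP mice. With the number as a factor the log2 fold change was −0.79 (edgeR adjusted p = 0.00513).

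The call on *Kmt2d* did not hold in every fit. With HF+LP mouse 2 left out the edgeR adjusted p was 0.0151, with HF+LP mouse 4 left out it was 0.0116, and with only HF+LP and LP libraries in the model it was 0.0422, all at log2 fold changes of −0.77 to −0.79. An offset for transcript G+C content and length, chosen after the data were seen, moved the log2 fold change to −0.42 (edgeR adjusted p = 0.144). Long G+C-rich transcripts had mostly negative values in the same comparison. Among 21 protein-coding genes with transcripts over 10000 nucleotides and G+C over 55%, the 9 genes left out, 18 had a negative log2 fold change in HF+LP compared with LP and the median was −0.38, against a median of 0.01 over 9778 genes. In HF compared with NP the same 21 genes had a median of −0.52, with 20 negative. Their medians were 0.12 in HF+LP compared with HF and −0.04 in LP compared with NP.

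In HF compared with NP hearts, the comparison that led to its selection, the log2 fold change of *Kmt2d* was −0.89 (SE 0.11), and every HF mouse lay below every NP mouse. With the G+C and length offset it was −0.41 (SE 0.13). No difference of *Kmt2d* with protein content passed the test. In HF+LP compared with HF hearts, which share the HF mice with the comparison above, its log2 fold change was 0.15 (SE 0.11, 95% interval −0.07 to 0.37, edgeR adjusted p = 0.999). In LP compared with NP hearts, which share the NP mice, it was 0.04 (SE 0.10, 95% interval −0.18 to 0.26, edgeR adjusted p = 0.975). The high-fat change at low protein was 0.11 higher on the log2 scale than that at normal protein (SE 0.15), which is given without a test because the latter led to the choice of *Kmt2d*.

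**Figure D2:**
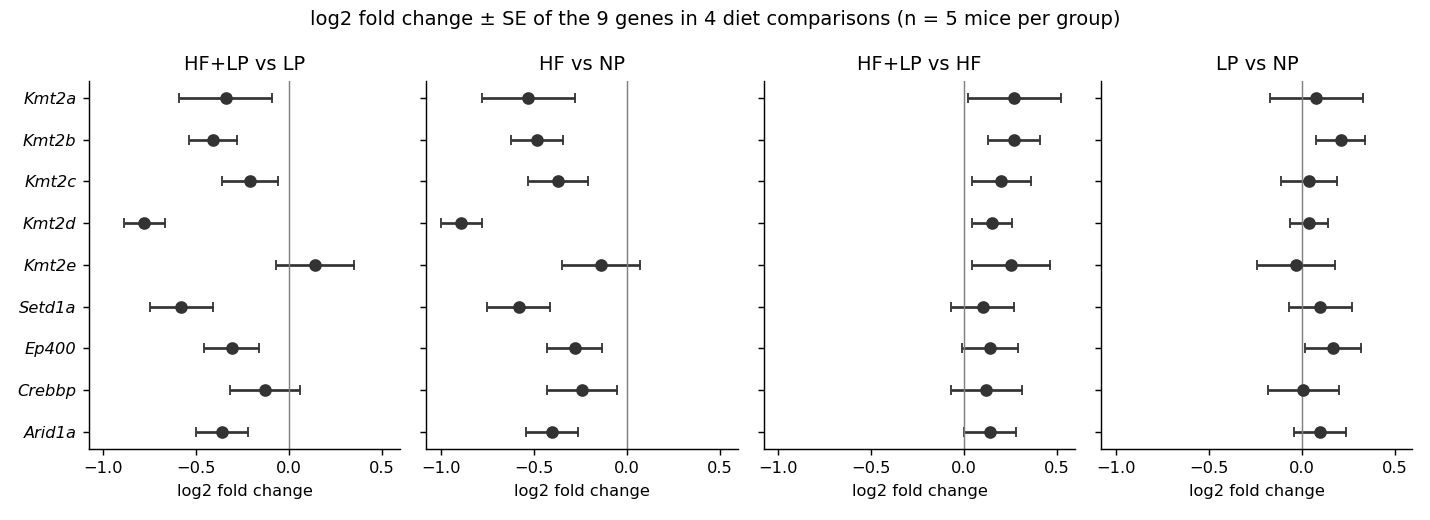
Log2 fold change (horizontal axis) with its SE for the 9 genes in each of 4 diet comparisons, 5 mice per group. Both high-fat comparisons place *Kmt2d* farthest to the left, at −0.78 and −0.89, and the protein comparisons hold all 9 genes between −0.03 and 0.27.

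*Setd1a*, the catalytic subunit of a promoter-directed COMPASS complex, had the next lowest log2 fold change. Its normalized counts were 223, 306, 194, 234, and 279 in NP mice (in ascending order of mouse number, as for all genes below) and 230, 186, 362, 310, and 233 in LP mice. They were 142, 181, 182, 168, and 152 in HF mice and 150, 178, 139, 204, and 216 in HF+LP mice. HF mice lay wholly below NP mice, whereas the HF+LP and LP ranges overlapped. The log2 fold change in HF+LP compared with LP was −0.58 (SE 0.17), with an unadjusted p of 0.00304 and an edgeR adjusted p of 0.126, and was not called. Without LP mouse 13, the highest of the LP values, it was −0.44 (edgeR adjusted p = 0.248).

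*Kmt2b*, which acts with menin and has its best-known roles in germ cells and early development, was the least abundant of the 9. Its normalized counts were 155, 154, 164, 144, and 150 in NP mice, 208, 144, 163, 179, and 196 in LP mice, 117, 91, 114, 111, and 118 in HF mice, and 98, 137, 114, 165, and 154 in HF+LP mice. The HF mice were below all NP mice, and the HF+LP mice spread over both ranges. In HF+LP compared with LP the log2 fold change was −0.41 (SE 0.13, unadjusted p = 0.00605, edgeR adjusted p = 0.147), which did not pass. In HF+LP compared with HF it was 0.27 (SE 0.14, 95% interval −0.01 to 0.56).

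*Arid1a*, the BAF subunit, had 741, 635, 582, 606, and 536 normalized counts in NP mice and 589, 676, 550, 668, and 830 in LP mice. HF mice had 428, 509, 417, 496, and 496, all below the NP mice, and HF+LP mice had 408, 559, 396, 672, and 557, which reached into the LP range. Its log2 fold change in HF+LP compared with LP was −0.36 (SE 0.14, unadjusted p = 0.0213, edgeR adjusted p = 0.225). *Ep400*, the TIP60 ATPase, had a log2 fold change of −0.31 (SE 0.15, edgeR adjusted p = 0.324) in the same comparison, with means of 438 ± 54 in HF+LP and 542 ± 131 in LP mice. Gm22716, the small nuclear RNA gene inside *Ep400*, had 702 counts over the 20 libraries and a log2 fold change of 0.21 (SE 0.51).

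The 4 remaining genes are the most abundant ones. *Kmt2a*, a regulator of Hox genes, had normalized counts of 656 to 1524 (NP), 602 to 1678 (LP), 600 to 974 (HF), and 609 to 1157 (HF+LP), so every pair of groups overlapped. Its log2 fold change in HF+LP compared with LP was −0.34 (SE 0.25, edgeR adjusted p = 0.526). *Kmt2c*, the close paralog of *Kmt2d*, had means of 1312 ± 221 (NP), 1350 ± 342 (LP), 1018 ± 40.2 (HF), and 1170 ± 91.9 (HF+LP). The same comparison gave *Kmt2c* a log2 fold change of −0.21 (SE 0.15, 95% interval −0.53 to 0.12, edgeR adjusted p = 0.532), so the interval holds values from a decrease to a small increase. *Crebbp*, the histone acetyltransferase, had a log2 fold change of −0.13 (SE 0.19, edgeR adjusted p = 0.78), which was −0.02 without LP mouse 5. *Kmt2e* was the 1 gene of the 9 with a positive value, 0.14 (SE 0.21, edgeR adjusted p = 0.787), which became −0.05 without LP mouse 13. *Srpk2*, on the strand opposite *Kmt2e*, had a log2 fold change of 0.04 (SE 0.15).

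Leaving out LP mouse 13 moved several of these values. The log2 fold change in HF+LP compared with LP was then −0.52 for *Kmt2a* (SE 0.23), −0.36 for *Kmt2c* (SE 0.12), and −0.25 for *Crebbp* (SE 0.19). It was −0.45 for *Kmt2b*, −0.43 for *Ep400*, and −0.42 for *Arid1a*. All 9 genes were negative without this mouse, and of the 9 *Kmt2d* alone was called. Other omissions moved values the other way. Without LP mouse 20, *Kmt2a* and *Ep400* were each at −0.20, and without LP mouse 5 *Kmt2c* was at −0.14.

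Counted over the 9 genes, 8 had a negative log2 fold change in HF+LP compared with LP and the median was −0.34, against −0.03 over all genes tested. Of these, 1 was called, and 4 (*Kmt2d*, *Setd1a*, *Kmt2b*, and *Arid1a*) were lower at an unadjusted p under 0.05, where 9.66% of all genes tested were lower and 6.26% higher. With the G+C and length offset none of the 9 was called, and the log2 fold changes ranged from −0.42 for *Kmt2d* to 0.17 for *Kmt2e*. *Setd1a* was then at −0.40, *Kmt2b* and *Arid1a* at −0.16, *Kmt2a* and *Ep400* at −0.14, *Kmt2c* at −0.07, and *Crebbp* at 0.03. In HF compared with NP, from which *Kmt2d* was picked, all 9 were negative with a median of −0.40, against −0.00 over all genes tested. With the G+C and length offset these values ran from −0.41 in *Kmt2d* to −0.01 in *Crebbp*, with *Kmt2a* at −0.18, *Kmt2c* at −0.09, and *Ep400* at −0.04. Ranges of 4 genes lay wholly below those of NP, where 3.60% of all genes did. The call threshold was met there by 0.214% of all genes in the lower direction and by 1 of the 9, the gene picked on that comparison, and nothing is read from these counts.

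**Figure D3:**
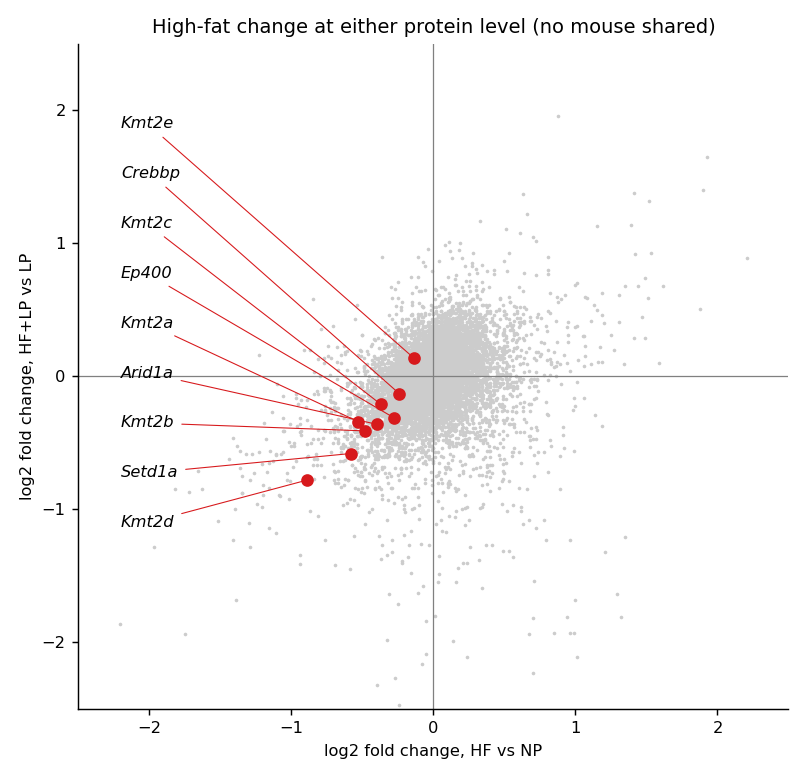
Log2 fold change in HF compared with NP (horizontal axis) against HF+LP compared with LP (vertical axis), which share no mouse; grey points are genes with a mean normalized count over 50, red points the 9 genes, and 30 genes with a value beyond 2.5 in either direction lie outside the frame. *Kmt2d* sits at −0.89 and −0.78, and *Kmt2e* alone among the 9 lies above 0 on the vertical axis.

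Protein restriction moved none of the 9 genes past the threshold. In HF+LP compared with HF all 9 log2 fold changes were positive, from 0.10 in *Setd1a* to 0.27 in *Kmt2a* and *Kmt2b*, with a median of 0.15 against 0.02 over all genes tested. None was called or had an unadjusted p under 0.05, as did 2.43% of all genes in the lower and 2.41% in the higher direction, and 0% of all genes were called lower by edgeR. With the G+C and length offset the 9 values in this comparison ran from 0.04 in *Kmt2d* and *Crebbp* to 0.25 in *Kmt2b*. With 1 mouse left out, *Setd1a* went down to 0.02 and *Arid1a* to 0.03. In LP compared with NP the 9 values ran from −0.03 in *Kmt2e* to 0.21 in *Kmt2b*, with a median of 0.08 against 0.02. No member passed an unadjusted p of 0.05 there, where 2.21% of all genes were lower and 5.02% higher, and again 0% of all genes were called lower by edgeR. Over all genes, edgeR called 0 in both protein comparisons, with 677 and 1012 genes at an unadjusted p under 0.05, and DESeq2 called 16 and 4.

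Mice of the same diet differed in these genes in 2 ways. After group means were subtracted from log2 CPM, *Kmt2a*, *Kmt2c*, *Kmt2e*, *Ep400*, and *Crebbp* varied together over the 20 libraries, with Pearson's r from 0.74 to 0.94 between them. Without LP mouse 13 and NP mouse 4 these ran from 0.573 to 0.911, and r of *Kmt2d* was 0.182 with *Ep400*. *Kmt2a* and *Crebbp* were among the closest (r = 0.94 and Spearman's rho = 0.89, permutation within diets, adjusted p = 0.00045 for each, r = 0.91 without the 2 mice farthest from the median of *Kmt2a*). *Kmt2d* went the other way or stood aside. Its r was −0.64 with *Crebbp* (rho = −0.70, permutation adjusted p = 0.015 and 0.0132, r = −0.55 without the 2 farthest mice) and −0.34 with its paralog *Kmt2c* (rho = −0.26, permutation adjusted p = 0.226 and 0.335, r = −0.04 without the 2 farthest mice). *Setd1a* was likewise negative with *Kmt2a* (r = −0.68, rho = −0.71, permutation adjusted p = 0.0147 and 0.0124, r = −0.50 without the 2 farthest mice). The p-values were adjusted over 45 relations, and all points share libraries and scaling factors. The split also followed transcript G+C content. It is 45.9% (*Kmt2e*) to 52.1% (*Ep400*) in the genes that varied together and 56.7% (*Arid1a*) to 59.1% (*Kmt2b*) in the others. These correlations were computed without the G+C and length offset, and the part of G+C content in them was not tested.

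**Figure D4:**
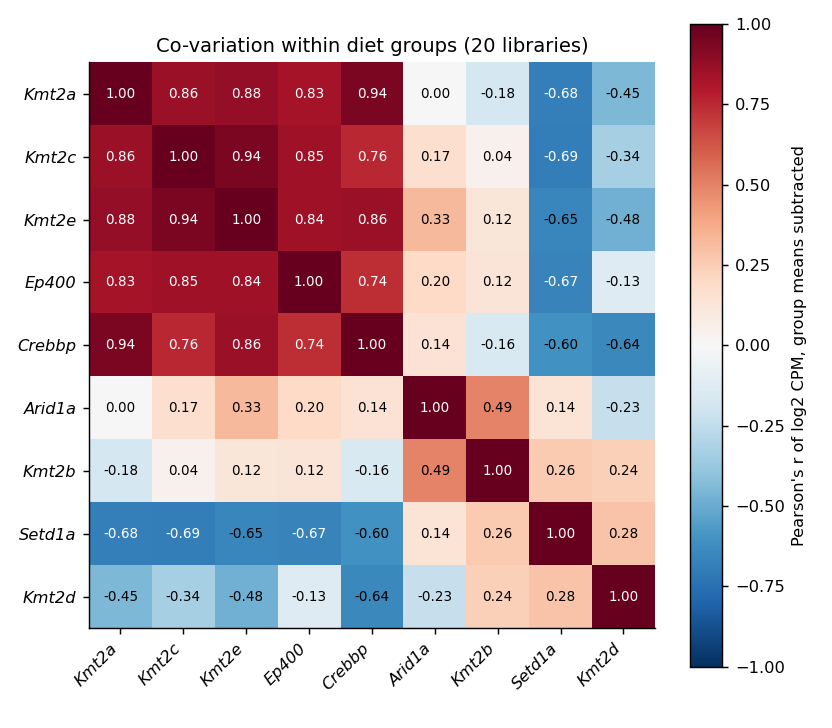
Pearson's r between the log2 CPM of each pair of the 9 genes over 20 libraries after group means were subtracted; color and number give r. *Kmt2a*, *Kmt2c*, *Kmt2e*, *Ep400*, and *Crebbp* form a block of r from 0.74 to 0.94, and *Kmt2d* and *Setd1a* are negative with that block.

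The same block followed a list of RNAs here called nuclear-retained. Beside *Malat1* and *Neat1* the list holds 5430431A17Rik and Gm42972, whose place in the cell was not examined. A score of nuclear-retained RNAs, the mean log2 CPM of 10 transcripts such as *Malat1* and *Neat1* centered over the 20 libraries, correlated within diets with *Kmt2a* (r = 0.82, rho = 0.72, permutation adjusted p = 0.00139 and 0.0096, r = 0.70 without the 2 farthest mice). The mouse with the lowest *Kmt2a* of its diet was the one with the lowest score in 4 of 4 diets, and the same held for *Kmt2c*, *Kmt2e*, and *Crebbp*. It held in 3 of 4 diets for *Ep400*, in 1 for *Arid1a*, and in 0 for *Kmt2b*, *Setd1a*, and *Kmt2d*. For *Kmt2d* the r with the score was −0.38 (rho = −0.42, permutation adjusted p = 0.21 and 0.169, r = −0.38 without the 2 farthest mice). The list behind the score was drawn in part from RNAs known to be lower in these hearts, so its difference between diets is a description. The score was lower on average on both high-fat diets, with means (± SD, n = 5) of 0.436 ± 0.262 (NP), 0.323 ± 0.288 (LP), −0.571 ± 0.254 (HF), and −0.188 ± 0.288 (HF+LP). Its HF+LP and LP ranges overlapped (−0.607 to 0.0874 and −0.19 to 0.485). Of its 10 transcripts, 9 had a negative and 1 a positive log2 fold change in HF+LP compared with LP. The HF+LP and LP ranges did not overlap for 5430431A17Rik (56 to 87 and 183 to 379 normalized counts). Nor did they for Gm42972 (69 to 101 and 121 to 173). The part of the score in the lower *Kmt2d* counts was not tested.

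Markers of other cell types also differed between mice. Summed adipocyte markers ran from 0.726 to 10.8 CPM in HF+LP mice (median 0.982) and from 4.17 to 290 CPM in LP mice (median 7.06), where LP mice 13 and 20 had 290 and 130 CPM and the other LP mice 7.06 or less. All 4 adipocyte genes were lower at an unadjusted p under 0.05 and none was called. Summed atrial markers ran from 60.2 to 5188 CPM (median 147) in HF+LP and from 133 to 14814 CPM (median 1597) in LP mice. Summed mural markers were at 527 ± 59.3 CPM in HF+LP and 494 ± 82.6 CPM in LP mice, and 4 of 6 had negative log2 fold changes, 2 of them at an unadjusted p under 0.05. Those are *Myh11*, the smooth muscle myosin heavy chain, and *Tagln*, a smooth muscle actin-binding protein, both named after their values were seen, as was *Myh6*. *Myh11* had 108 to 172 normalized counts in HF+LP and 221 to 986 in LP mice, so the ranges did not overlap, and its log2 fold change was −1.68 (SE 0.32, edgeR adjusted p = 0.0213), and in HF compared with NP it was at −1.39 (SE 0.32, edgeR adjusted p = 0.0341). *Tagln* was at −1.28 (SE 0.39, edgeR adjusted p = 0.128) in HF+LP compared with LP. *Myh6*, the main myosin heavy chain of the adult mouse ventricle, was at −0.40 (SE 0.13, edgeR adjusted p = 0.158) in HF+LP compared with LP and at −0.70 (SE 0.13, edgeR adjusted p = 0.0124) in HF compared with NP. *Myh6* is 1 of 9 ventricular cardiomyocyte markers, of which 3 had negative and 6 positive values in HF+LP compared with LP (median 0.13), with sums of 47653 ± 6162 and 44254 ± 8194 CPM. The myeloid markers were at 360 ± 41.7 CPM in HF+LP and 385 ± 143 CPM in LP mice. Between HF and NP libraries the myeloid markers were at 467 ± 45.7 and 349 ± 43.1 CPM, with 8 of 8 positive and 4 at an unadjusted p under 0.05. Over all genes, 1831 of the 13991 tested had such a p in HF compared with NP, in either direction. Erythroid markers were at 8486 ± 2770 CPM in HF and 5824 ± 2738 CPM in NP mice, with 5 of 5 positive and 1 at that p. Fibroblast markers were at 1225 ± 127 CPM in HF and 1061 ± 82.9 CPM in NP mice, with 6 of 6 positive and 1 at an unadjusted p under 0.05. That was the collagen gene *Col3a1*, also named after its values were seen, at 0.87 (SE 0.19, edgeR adjusted p = 0.0217) with every HF mouse above every NP mouse. Ventricular cardiomyocyte markers were at 43653 ± 4450 and 51370 ± 3340 CPM, with 8 of 9 negative, and mitochondrially encoded genes took 38.7% ± 0.751 and 43.2% ± 2.48 of counts. Their part in the differences of the 9 genes was not tested.

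No partner of these enzymes was called. Of 16 other COMPASS subunits, all tested, 13 had a negative log2 fold change in HF+LP compared with LP, and 3 passed an unadjusted p of 0.05 downward. The median was −0.14, and edgeR called none. *Hcfc1*, a subunit of SETD1 and KMT2 complexes, had a log2 fold change of −0.30 (SE 0.12, edgeR adjusted p = 0.231), and *Cxxc1*, which binds unmethylated CG sites, −0.48 (SE 0.20, edgeR adjusted p = 0.245). *Setd1b*, the paralog of *Setd1a*, was at −0.25 (SE 0.11) there and at −0.40 (SE 0.11) in HF compared with NP, where its ranges did not overlap. *Ncoa6*, a coactivator in the KMT2C and KMT2D complexes, was at −0.22 (SE 0.13) and −0.36 (SE 0.13). Of 5 demethylases of H3K4, 0 passed an unadjusted p of 0.05 in HF+LP compared with LP, and *Kdm5c* and *Kdm1b* were at −0.12 and 0.16. *Kdm1a*, which removes methyl groups from H3K4, was at 0.05 (SE 0.25) there and at 0.33 (SE 0.25) in HF compared with NP. *Kdm6b*, a demethylase of H3K27, had a log2 fold change of −0.69 (SE 0.21, edgeR adjusted p = 0.128) in HF+LP compared with LP and −0.41 (SE 0.21) in HF compared with NP.

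None of the other histone methyltransferases passed the threshold. Of 23 tested, 0 were called and 0 passed an unadjusted p of 0.05 in HF+LP compared with LP, with a median of −0.07. *Smyd3* and *Kmt5b*, the latter a methyltransferase of histone H4, had the smallest p at log2 fold changes of −0.27 (SE 0.13) and −0.25 (SE 0.13). *Dot1l*, the H3K79 methyltransferase, was at −0.24 (SE 0.14) in HF+LP compared with LP and at −0.70 (SE 0.15) in HF compared with NP, where every HF mouse was below every NP mouse. *Eed*, a core subunit of PRC2, was at 0.06 (SE 0.16) and 0.35 (SE 0.16).

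Among 24 acetyltransferases and subunits of the TIP60 complex, 1 was higher at an unadjusted p under 0.05 and 0 lower, with a median of −0.04. It was *Yeats4*, a reader of acetylated histones, at 0.28 (SE 0.11, edgeR adjusted p = 0.229), while *Srcap*, the ATPase related to *Ep400*, was at −0.63 (SE 0.31, edgeR adjusted p = 0.326) on a mean of 41.1 normalized counts. The 22 other BAF genes tested gave 3 lower and 1 higher at that p, with a median of −0.05, among them *Dpf2* (−0.42, SE 0.17) and *Brd7* (0.38, SE 0.11). *Arid2*, a subunit of the PBAF form, was at −0.26 (SE 0.14). *Dpf3*, a BAF subunit of heart and skeletal muscle, was at 0.07 (SE 0.21) in HF+LP compared with LP and at −0.27 (SE 0.21) in HF compared with NP. Of 21 other remodelers and readers, 1 passed, *Chd6* at −0.38 (SE 0.17), with *Ino80* at −0.21 (SE 0.14) and *Chd4* at −0.15 (SE 0.14).

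Of 17 deacetylases and corepressors, 4 were lower at the same unadjusted p, none was called, and the median was −0.14. They included *Hdac7* at −0.52 (SE 0.19, edgeR adjusted p = 0.192) and *Mta2* of the NuRD complex at −0.37 (SE 0.15, edgeR adjusted p = 0.233). *Hdac4*, which binds MEF2 factors, was at −0.02 (SE 0.13) in HF+LP compared with LP but at −0.68 (SE 0.13) in HF compared with NP, a contrast between the comparisons that was not tested. Over the 129 tested genes of these lists together, 12 were lower and 2 higher at an unadjusted p under 0.05, 0 were called, and the median was −0.07. The 12 lower genes are 9.3% of the 129, beside 9.66% of all genes. The nuclear-retained RNAs, by contrast, had a median of −0.56, and 3 of 10 were called lower, among them 5430431A17Rik at −1.86 (SE 0.18, edgeR adjusted p = 1.78e-05) and Gm42972 at −0.85 (SE 0.12, edgeR adjusted p = 0.00388). That list was drawn in part from RNAs known to be lower in these hearts, so its count and median are no independent evidence.

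**Figure D5:**
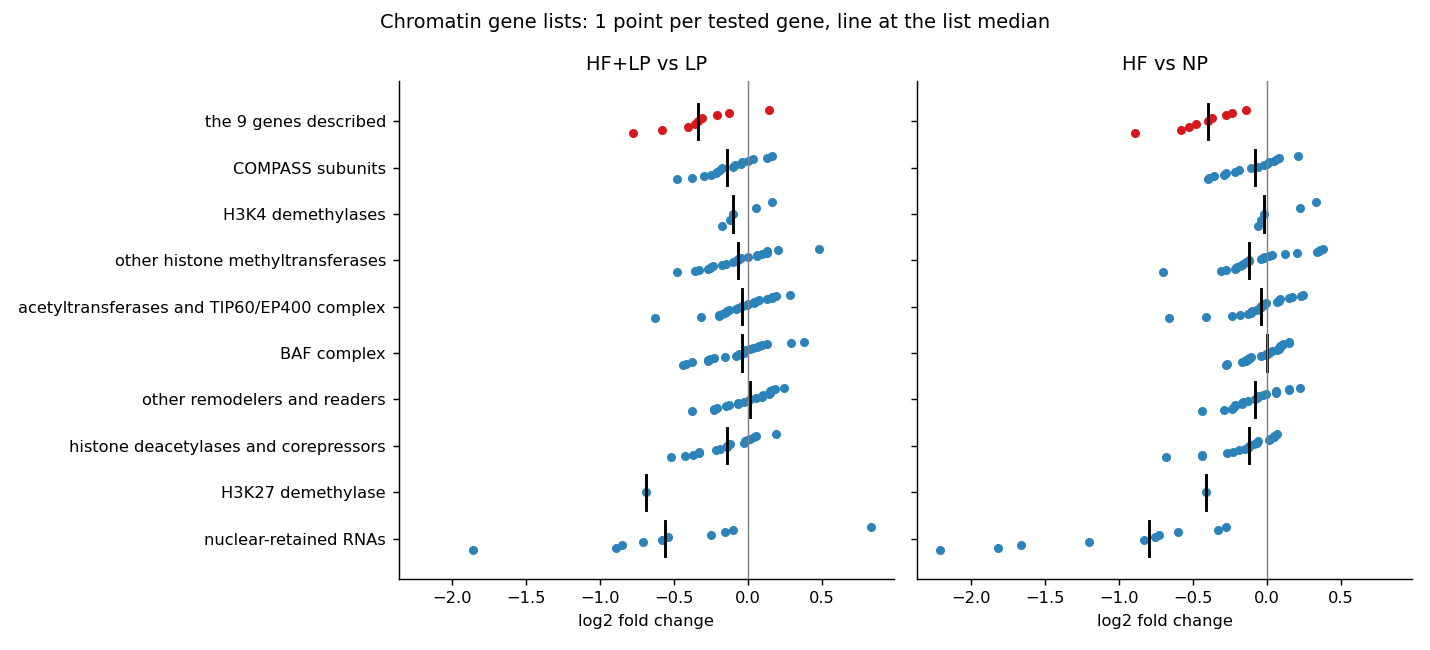
Log2 fold change (horizontal axis) of every tested gene of each chromatin list in HF+LP compared with LP and in HF compared with NP; 1 point per gene, with a line at the list median. The 9 genes (red) have medians of −0.34 and −0.40, most other chromatin lists medians between −0.14 and 0.01, and the nuclear-retained RNAs medians of −0.56 and −0.79.

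Genes with a profile like that of *Kmt2d* were sought among the 10150 other tested genes with a mean normalized count over 50. Over the 20 libraries the highest Pearson's r of log2 CPM was that of *Leng8* (r = 0.91), followed by 5330406M23Rik and Gm42972 (r = 0.897 each) and the long non-coding RNA 5430431A17Rik (r = 0.894). These 4 had negative log2 fold changes in HF+LP compared with LP, from −0.77 in *Leng8* to −1.86 in 5430431A17Rik, and the ranking reflects the difference between diets. After group means were subtracted, a different set ranked first. It comprised *Phf8*, a histone demethylase (r = 0.905), *Pdk4*, a kinase that inhibits pyruvate dehydrogenase (r = 0.897), the innate immune kinase *Tbk1* (r = 0.887), *Lrrc57* (r = 0.874), and *Tulp3* (r = 0.867). *Pdk4* had a log2 fold change of 0.89 in HF+LP compared with LP and of 2.21 in HF compared with NP, opposite in sign to *Kmt2d*. The ranking depended on the measure. By Spearman's rho *Phf8* again came first after group means were subtracted (rho = 0.898), and it was the only gene among the 5 highest by both measures. Without subtraction *Aasdh* had the highest rho (0.905), and 5330406M23Rik was the only gene among the 5 highest by both. These correlations were ranked from 10150 genes and are given without a p.

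Of the genes next to *Kmt2d* on chromosome 15, *Prkag1*, a regulatory subunit of AMP-activated kinase, had a log2 fold change of −0.03 (SE 0.12, edgeR adjusted p = 0.92) in HF+LP compared with LP. *Rhebl1*, a small GTPase of the Rheb family, had −1.05 (SE 0.32, edgeR adjusted p = 0.126).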

How the data were processed

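Libraries were prepared with the Lexogen QuantSeq 3′ method from left ventricular RNA of 20 mice, aligned by the authors with BlueBee software, and deposited as raw counts per Ensembl gene without normalization. The submitters' processing notes name GRCm38 and DESeq2 1.22.2. The counting program, annotation, and use of strand are not given in the sources used here. Totals of 12559607 to 23331907 counts per library limit precision by counting error and by 5 mice per diet.

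Counts were analyzed in R 4.3.3 with edgeR 4.0.16 (quasi-likelihood test, all 4 diets in the model). Filtering with filterByExpr kept 13991 of 15956 genes, which were scaled by TMM. Benjamini-Hochberg adjustment covered all genes tested. A gene was called when its adjusted p was below 0.01 and its base mean above 50, as in the study's methods. SEs were derived from the F statistic. Base mean and normalized counts are counts divided by scaling factors. CPM used a prior count of 2 on the log2 scale. The test was checked on simulated data. Annotation was GENCODE M21, and symbols were found for 15917 genes. Co-variation within diets was tested with 100000 permutations within diets.

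The genes and lists were chosen with earlier results of these data known. Named are the 9 genes, the 2 genes per list with the smallest p in HF+LP compared with LP and the 2 in HF compared with NP, and the 5 genes most correlated with *Kmt2d* with and without group means; 2 of these are not reported here. The neighbors and overlapping genes were named after their values were seen. The 3 listed genes *Setdb2*, *Dpf1*, and *Bicra* did not pass the filter. Alternatives were RLE size factors, DESeq2 1.42.0, scaling without mitochondrially encoded genes, other filters and thresholds, library number as a factor, the animal number as a block, 2 groups in the model, each mouse left out, and, added after seeing the data, an offset for G+C and length (loess per library on transcript G+C and log2 length, span 0.5). Same-numbered mice did not deviate together in every pair.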

Additional observations from a re-analysis of the deposited data

Results flagged for a closer look

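In 36 combinations of a gene and a diet, a mouse lay apart from the other 4 of its group in 2 cases by Dixon's criterion, which chance alone meets in about 1 in 20 groups. *Kmt2b* was at 91 normalized counts in HF mouse 2, against 111 to 118 in the other HF mice. *Kmt2c* was at 925 normalized counts in NP mouse 4, against 1328 to 1456 in the other NP mice.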

How the results depend on the processing

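The direction of *Kmt2d* in HF+LP compared with LP was negative under every alternative run, with log2 fold changes from −0.82 to −0.42, and its call was lost under 5 of them. With only 2 groups in the model it was −0.79 with 0 of the 9 genes and 0 genes in all called (61 in HF compared with NP). With the G+C and length offset, *Kmt2d* was at −0.42, *Crebbp* turned to 0.03, and 1 gene was called, none of the 9, against 22 in HF compared with NP, again 0 of the 9. Same-numbered mice in HF+LP and LP correlated at −0.0179 to 0.375. With only 2 shared numbers, these values cannot tell whether the animal number pairs mice. With that number as a replicate block, *Kmt2d* was at −0.72 (edgeR adjusted p = 0.456), *Kmt2e* at −0.09, and 0 genes and 0 of the 9 were called. In HF compared with NP the block left 2 genes and 0 of the 9 called, and in LP compared with NP it turned *Kmt2e* to 0.24, *Setd1a* to −0.21, and *Arid1a* to −0.07. With library number as a factor 5 genes were called in HF+LP compared with LP, and *Kmt2e* was 0.04 in LP compared with NP. No filter put *Crebbp* at −0.00 in LP compared with NP. An adjusted p under 0.05 gave 45 genes in HF+LP compared with LP and 157 in HF compared with NP. DESeq2 called 84, 16, 4, and 163 genes in HF+LP compared with LP, HF+LP compared with HF, LP compared with NP, and HF compared with NP, where edgeR called 14, 0, 0, and 37.

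With each mouse left out in turn, *Kmt2d* in HF+LP compared with LP ranged from −0.82 to −0.76, 0 to 1 of the 9 genes and 1 (without HF+LP mouse 2) to 16 genes in all were called, and *Kmt2e* ranged from −0.05 to 0.24. HF compared with NP gave 20 to 32 called genes, and HF+LP compared with HF 0 to 1. In LP compared with NP, signs changed for *Kmt2a* (−0.07 to 0.25), *Kmt2c* (−0.06 to 0.19), *Kmt2d* (−0.00 to 0.09), *Kmt2e* (−0.17 to 0.15), *Setd1a* (−0.05 to 0.20), and *Crebbp* (−0.11 to 0.12). The causes were not tested. The smallest raw count of the 9 genes in a library, 69, was that of *Kmt2b*.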
